A study of Mus musculus with 42 samples.

Results

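Developmental transcription factors of the Sox, Lhx, Nkx, sine oculis (Six3, Six6 and relatives), Irx, Pou, Dlx, Zic, Onecut, Meis, Pbx, Tbx and Hmx families were measured in 4 nuclei of the adult mouse hypothalamus. Members were taken as the protein-coding genes whose symbol begins with the name of one of these 13 families and a digit and that reached 3 RPKM (reads per kilobase of exon, scaled to the number of mapped reads) in at least 4 of 42 libraries. Of 103 family genes among the 37907 genes of the table, 40 reached this level. The 40 genes were thus chosen by their RPKM values, and a gene high in a single nucleus passes the rule through that nucleus alone, so counts over them are given as a description.

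Wild-type male C57/BL6 mice were fed ad libitum or fasted for 24 hours, and the arcuate nucleus (ARC), ventromedial nucleus (VMH), dorsomedial nucleus (DMH) and paraventricular nucleus (PVN) were cut from their brains by laser capture. Fed mice gave 5 ARC, 6 VMH, 5 DMH and 6 PVN libraries, and fasted mice gave 5, 6, 4 and 5. According to the study's methods the nuclei were captured from the same brains, and the labels do not name the mouse, so libraries of different nuclei were treated as independent although they may share a mouse. All mice carried the wild-type genotype, and each library held a whole dissected nucleus, in which fewer cells of a type and less RNA per cell cannot be told apart.

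The estimated depth was 1.33 to 13.2 M reads per library, with 3 libraries (1 each of fasted VMH, fed VMH and fed PVN) under 2 M reads. Of 18 tested neuropeptides and regulators that mark 1 of the 4 nuclei, 17 differed between fed nuclei and were highest in the nucleus they mark, while Prlh, a DMH marker, showed no reads in any library. The DMH libraries also held Hcrt and Pmch, the neuropeptides of the neighbouring lateral hypothalamus, with summed RPKM of 269 to 1448 in fed DMH libraries against 2.48 to 35.2 in fed libraries of the other nuclei. The part of this tissue in the DMH values below was not tested. In fed VMH the 2 listed genes of the neighbouring premammillary region summed to 127 to 188 RPKM, against 55.0 to 99.6 in fed PVN, the next nucleus. Both were highest in the VMH, and 1 of them differed between fed nuclei. The part of that region in the VMH values below was not tested either.

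These families are best known from the embryo. Homeodomain factors (Lhx, Nkx, sine oculis, Irx, Pou, Dlx, Onecut, Meis, Pbx, Hmx), SOX factors with a high-mobility-group box, T-box factors and the zinc-finger Zic factors divide the developing hypothalamus into territories and then set the neuron types that each territory makes. Many of them stay on in the adult neuron, where they hold its transmitter and neuropeptide identity, and others mark glia or blood vessels.

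The families differed in how many of their genes were reached at this level. The 3 Pbx genes considered, which encode DNA-binding partners of other homeodomain proteins, were members, as were 12 of 18 Sox, 7 of 16 Pou, 4 of 6 Dlx, 4 of 14 Nkx, 2 of 3 Hmx, 2 of 6 sine oculis, 2 of 7 Lhx, 2 of 5 Zic, 1 of 3 Meis and 1 of 13 Tbx genes. None of the 6 Irx and 3 Onecut genes measured reached it. The genes just inside the rule, by the library that ranked number 4 from the top, were Hmx3 at 3.07, Zic2 at 3.44 and Sox13 at 3.996 RPKM. Those just outside were Sox21 at 2.76, Sox7 at 2.74 and Onecut2 at 2.61 RPKM. Of the 63 family genes below the level, 31 showed no reads in at least 21 of the 42 libraries. No value of the table is 0, because the deposited values include a small added count.

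The nuclei of fed mice carried different sets of these factors. With limma on log2(RPKM + 1), a gene was called when its F test over the 4 nuclei had an adjusted p below 0.1 across the 33579 genes tested. Of the 40 members 26 were called in fed mice, where 12.4% of all genes and 27.6% of the 12399 protein-coding genes at the same RPKM level were called, and over all 74 family genes that entered the test 34 were called. In fasted mice 28 members were called, with 11.9% and 26.1% of the same backgrounds, and 24 genes were called in both states, which is 92.3% of the fed calls and 85.7% of the fasted calls. The difference between the highest and the lowest nucleus in fed mice had a median of 1.23 on the log2 scale over the members and 0.47 over the protein-coding genes at that level. All 4 Dlx members, both Hmx, Lhx, sine oculis and Zic members, the Tbx member, 3 of 4 Nkx, 5 of 7 Pou and 5 of 12 Sox members were called in fed mice, and none of the 3 Pbx members was. The map of group means gives every member in both feeding states.

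**Figure D1:**
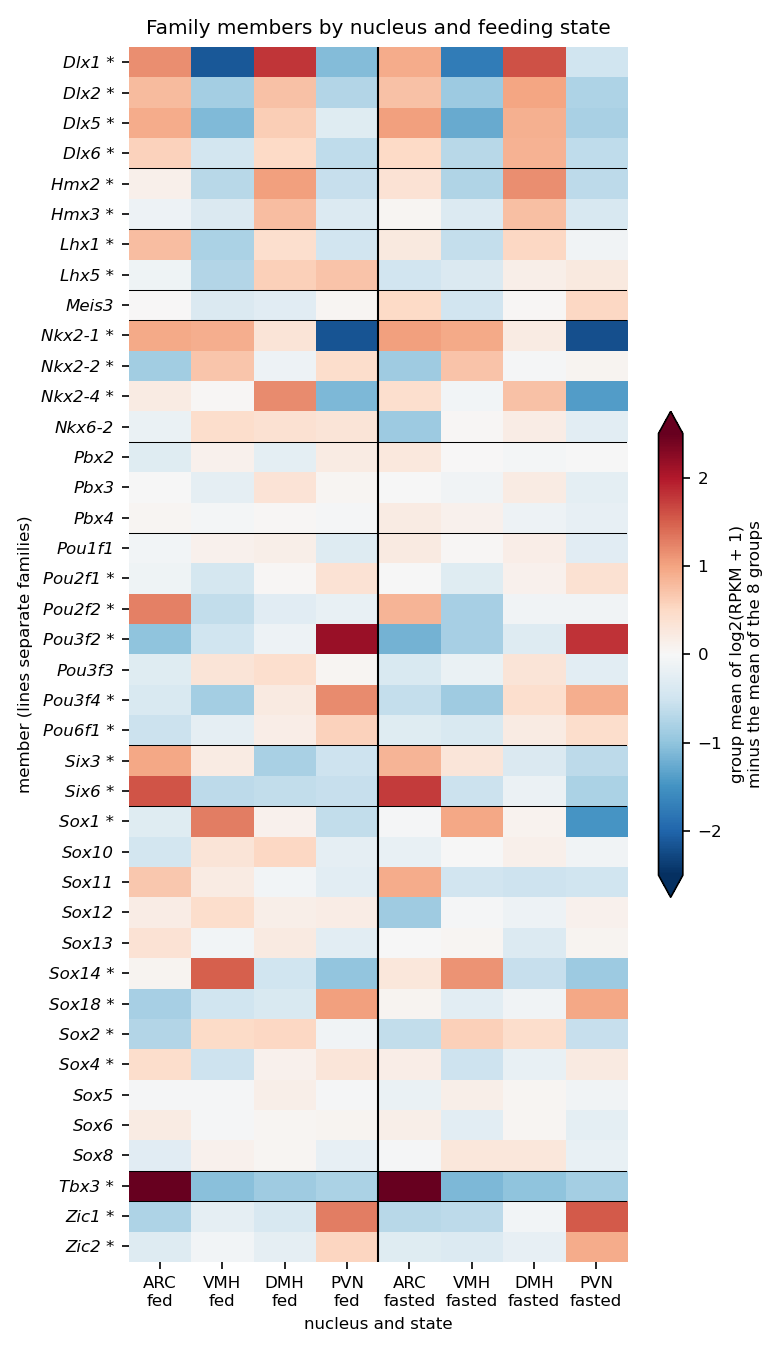
Each row is 1 of the 40 members, and each column is a nucleus in fed (left of the line) or fasted (right) mice. Colour gives the group mean of log2(RPKM + 1) minus the mean of the 8 groups, and stars mark the 26 members whose fed nuclei differed (limma adjusted p below 0.1). Tbx3 stands out in both ARC columns, Pou3f2 in both PVN columns, and Nkx2-1 is low in both PVN columns.

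A member was called enriched in a nucleus when it was higher there than in each of the other 3 nuclei at a limma adjusted p below 0.1. In fed mice 12 members met this, namely 4 ARC, 2 VMH, 3 DMH and 3 PVN genes. The same rule called 0.447%, 1.64%, 0.298% and 0.706% of all genes for these nuclei in turn, and 0.911%, 4.02%, 0.315% and 1.65% of the protein-coding genes at the same level. The upstream sequence of 8 of these 12 genes is shown, 2 for each nucleus, so that the regulatory sequence of genes led by different nuclei can be set side by side. Each line holds the 250 bases before a start site annotated by RefSeq on GRCm38.p6, read 5′ to 3′ on the gene's strand. These starts can differ from the ends of the GENCODE gene spans given with the genes, and the window of Six3 lies inside its span while those of Sox1, Hmx3 and Zic1 overlap theirs. RefSeq gives Hmx2 a pair of starts, and the upstream one is shown. Capitals mark TAAT, the core letters bound by many homeodomains, and ACAAT, the core letters bound by SOX proteins, on either strand (ATTA and ATTGT on the other).
Six6 (chr12:72939632-72939881, plus strand): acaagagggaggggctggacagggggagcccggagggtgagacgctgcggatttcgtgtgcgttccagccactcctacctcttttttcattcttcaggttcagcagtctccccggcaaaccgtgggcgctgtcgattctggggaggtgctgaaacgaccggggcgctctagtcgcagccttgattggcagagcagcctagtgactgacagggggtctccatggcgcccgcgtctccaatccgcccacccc
Six3 (chr17:85620584-85620833, plus strand): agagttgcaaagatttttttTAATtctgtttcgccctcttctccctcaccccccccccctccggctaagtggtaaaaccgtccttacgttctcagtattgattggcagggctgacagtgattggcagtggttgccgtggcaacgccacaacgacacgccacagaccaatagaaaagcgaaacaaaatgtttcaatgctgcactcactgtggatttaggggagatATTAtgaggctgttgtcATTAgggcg
Sox14 (chr9:99876171-99876420, minus strand): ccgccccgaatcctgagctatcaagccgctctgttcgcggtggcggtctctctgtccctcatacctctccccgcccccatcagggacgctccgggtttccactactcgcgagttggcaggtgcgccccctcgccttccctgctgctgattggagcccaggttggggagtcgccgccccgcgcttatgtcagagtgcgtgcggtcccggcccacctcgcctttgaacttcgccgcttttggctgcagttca
Sox1 (chr8:12395269-12395518, plus strand): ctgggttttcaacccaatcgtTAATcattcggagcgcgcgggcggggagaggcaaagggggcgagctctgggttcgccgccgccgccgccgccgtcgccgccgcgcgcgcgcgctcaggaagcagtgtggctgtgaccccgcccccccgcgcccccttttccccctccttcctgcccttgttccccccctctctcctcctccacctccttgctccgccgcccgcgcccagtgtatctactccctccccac
Hmx3 (chr7:131542713-131542962, plus strand): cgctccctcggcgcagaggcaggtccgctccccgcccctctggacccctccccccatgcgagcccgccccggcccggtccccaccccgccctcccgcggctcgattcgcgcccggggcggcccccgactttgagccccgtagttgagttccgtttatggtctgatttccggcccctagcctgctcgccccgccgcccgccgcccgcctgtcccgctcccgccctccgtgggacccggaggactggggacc
Hmx2 (chr7:131548507-131548756, plus strand): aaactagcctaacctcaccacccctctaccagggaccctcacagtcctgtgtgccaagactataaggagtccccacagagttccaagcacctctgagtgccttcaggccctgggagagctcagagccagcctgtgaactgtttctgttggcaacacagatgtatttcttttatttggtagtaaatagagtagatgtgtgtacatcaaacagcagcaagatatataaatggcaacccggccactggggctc
Pou3f2 (chr4:22488367-22488616, minus strand): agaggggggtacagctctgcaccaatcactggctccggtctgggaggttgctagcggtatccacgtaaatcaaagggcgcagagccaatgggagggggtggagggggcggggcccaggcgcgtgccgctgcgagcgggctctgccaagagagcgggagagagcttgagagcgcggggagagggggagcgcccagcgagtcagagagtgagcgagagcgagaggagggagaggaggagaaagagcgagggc
Zic1 (chr9:91365769-91366018, minus strand): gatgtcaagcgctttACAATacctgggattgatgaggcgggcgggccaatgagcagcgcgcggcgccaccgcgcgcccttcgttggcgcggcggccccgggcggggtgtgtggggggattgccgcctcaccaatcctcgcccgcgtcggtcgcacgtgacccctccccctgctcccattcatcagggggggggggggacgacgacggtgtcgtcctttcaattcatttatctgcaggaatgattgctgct

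Of these windows Six3 held 3 TAAT matches, Sox1 held 1 and Zic1 held 1 ACAAT match, and the other 5 held neither motif. RefSeq entries were found for 32 of the 40 members, with 41 windows in all because some genes have several starts. TAAT was in 18 of these 41 windows (43.9%) and in 54.9% of all 32851 windows, and ACAAT was in 11 (26.8%) and in 27.7% of all. The GC box GGGCGG, with CCGCCC on the other strand, was in 21 member windows (51.2%) and in 32.7% of all, and Hmx3 alone held 7 matches. The median GC content was 62.8% over the member windows and 52.4% over all windows. A match is a run of letters and was not tested as a binding site.

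In the ARC the leading member was Tbx3 (ENSMUSG00000018604, chr5:119670669-119684724, plus strand), a T-box factor known for keeping the identity of arcuate melanocortin neurons. Fed ARC libraries measured 24.4, 27.9, 28.3, 36.9 and 38.1 RPKM, and no fed library of another nucleus exceeded 3.23. All 5 ARC libraries lay above every library of the other nuclei, and the margin over the PVN, the next nucleus, was 3.57 (SE 0.24, limma adjusted p = 1.90e-13) on the log2(RPKM + 1) scale. Six6 (ENSMUSG00000021099, chr12:72939892-72944899, plus strand), a homeobox gene of the eye, pituitary and hypothalamus, measured 4.57, 5.603, 6.74, 7.11 and 8.32 RPKM in fed ARC and at most 1.17 elsewhere. Its margin over the PVN was 2.16 (SE 0.19, limma adjusted p = 3.72e-10), again without overlap. The related Six3 (ENSMUSG00000038805, chr17:85613608-85629302, plus strand), which patterns the anterior forebrain, was less confined. Its fed ARC libraries measured 5.67, 6.85, 7.53, 7.54 and 9.15 RPKM and its VMH libraries lay between 3.45 and 4.55 with a median of 3.68, with DMH values of 0.826 to 1.99 and PVN values of 0.724 to 5.52. The order ARC, VMH, then DMH and PVN was called at each step except between the last 2 nuclei, and the margin of the ARC over the VMH was 0.77 (SE 0.23, limma adjusted p = 0.0403). Without fed ARC library 1 that margin was 0.69 and no longer passed (limma adjusted p = 0.123).

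Pou2f2 (ENSMUSG00000008496, chr7:25087344-25179726, minus strand), a POU factor best known from B lymphocytes, was also enriched in the ARC. Fed ARC libraries measured 5.95, 6.97, 7.24, 8.75 and 8.75 RPKM and no fed library elsewhere exceeded 2.57, so the ARC stood clear of the other nuclei. The margin over the PVN was 1.45 (SE 0.23, limma adjusted p = 5.53e-05).

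In the VMH the members that led were both SOX genes. Sox14 (ENSMUSG00000053747, chr9:99874106-99876170, minus strand), a SOX repressor known from GABAergic interneurons, lay between 6.51 and 9.79 with a median of 7.96 RPKM in the 6 fed VMH libraries. The fed ARC libraries measured 1.68, 1.81, 1.96, 3.03 and 3.54, DMH libraries 0.63 to 2.44 and PVN libraries 0.376 to 0.932 RPKM. No library of another nucleus reached the lowest VMH library, and the margin over the ARC was 1.41 (SE 0.24, limma adjusted p = 7.28e-05). Sox1 (ENSMUSG00000096014, chr8:12395295-12400126, plus strand), known from neural progenitors and kept by some neurons, lay between 23.3 and 51.5 with a median of 31.97 RPKM in fed VMH. It was present in every nucleus, with 10.7, 14.1, 14.1, 16.4 and 16.9 RPKM in fed DMH, 8.897, 9.14, 9.36, 11.2 and 14.8 in fed ARC and values between 4.58 and 12.4 with a median of 8.48 in fed PVN. The VMH did not overlap the other nuclei and exceeded the DMH by 1.18 (SE 0.19, limma adjusted p = 5.84e-05).

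The VMH was at the same time the nucleus with the most oligodendrocyte RNA. All 5 oligodendrocyte genes listed (Mbp, Mog, Mag, Mobp and Cnp) were highest in the VMH, and 3 of them differed between fed nuclei. Their summed RPKM was 127.95 to 235 in fed VMH, 76.6 to 128.27 in fed DMH, 61.9 to 99.4 in fed PVN and 53.2 to 78.99 in fed ARC. The fed VMH and DMH sums thus overlapped slightly. The part of oligodendrocytes in the VMH values of Sox14 and Sox1 was not tested.

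In the DMH the neighbouring homeobox genes Hmx2 and Hmx3, known from the inner ear and the hypothalamus, were both higher than in the other nuclei. Their gene bodies lie 3.85 kb apart on chromosome 7 (Hmx2 ENSMUSG00000050100, chr7:131548773-131558014, plus strand; Hmx3 ENSMUSG00000040148, chr7:131542867-131544925, plus strand). Hmx3 measured 1.71, 1.74, 3.36, 3.75 and 4.66 RPKM in fed DMH and at most 1.64 in any other fed library, a margin over the ARC of 0.90 (SE 0.15, limma adjusted p = 0.000135). In 23 of the 42 libraries Hmx3 showed no reads, and 11 of these were VMH and 10 were PVN libraries. Hmx2 measured 2.37, 4.26, 4.78, 4.92 and 9.92 RPKM in fed DMH and 0.996, 1.76, 2.06, 2.77 and 3.84 in fed ARC, so that both nuclei carried it and 4 of 5 DMH libraries lay above the highest ARC library. Its margin over the ARC was 0.89 (SE 0.22, limma adjusted p = 0.0216), and the ARC in turn exceeded the VMH by 0.84 (SE 0.21, limma adjusted p = 0.00882). Without fed DMH library 1 or fed ARC library 3 the margin was 0.66 or 0.72 and no longer passed (limma adjusted p = 0.115 and 0.110).

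Nkx2-4 (ENSMUSG00000054160, chr2:147083316-147085445, minus strand), a close relative of Nkx2-1, was the other DMH gene. Fed DMH libraries measured 4.896, 6.02, 10.2, 12.6 and 13.8 RPKM, fed ARC libraries 2.299, 3.25, 4.24, 5.36 and 5.796, and fed VMH libraries lay between 1.86 and 6.19 with a median of 3.03. Only 3 of the 5 DMH libraries lay above all others, and the margin over the ARC was 0.97 (SE 0.28, limma adjusted p = 0.0641). This margin failed the test when any of fed ARC libraries 2 and 4 or fed DMH libraries 3, 4 and 5 was left out (0.82 to 0.93, limma adjusted p = 0.140 to 0.204), and with the replicate number as a block (limma adjusted p = 0.105). In the PVN the gene lay at 0.694 to 2.53 RPKM, and the DMH exceeded the PVN by 2.30 (SE 0.27, limma adjusted p = 2.65e-07). When only the fed libraries entered the fit, 1 of the 3 DMH members, Hmx3, was still called.

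In the PVN the leading member was Pou3f2 (ENSMUSG00000095139, chr4:22482780-22488366, minus strand), also called Brn2, a POU factor required for the magnocellular and corticotropin-releasing neurons of this nucleus. Fed PVN libraries lay between 13.7 and 22.4 with a median of 19.3 RPKM, whereas fed DMH libraries measured 2.37, 2.48, 2.58, 2.69 and 5.84 and fed ARC libraries 0.496, 0.851, 1.37, 1.698 and 1.87. The PVN stood clear of every other library, and its margin over the DMH was 2.29 (SE 0.23, limma adjusted p = 1.47e-08). Zic1 (ENSMUSG00000032368, chr9:91358058-91365810, minus strand), a zinc-finger factor of the dorsal neural tube and forebrain, lay between 4.12 and 6.83 with a median of 5.67 RPKM in fed PVN and reached at most 2.57 elsewhere. Its margin over the VMH was 1.497 (SE 0.15, limma adjusted p = 2.00e-09). Its relative Zic2 was low, at 0.935 to 4.698 RPKM in fed PVN, and exceeded the ARC and DMH but not the VMH at the threshold.

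Sox18 (ENSMUSG00000046470, chr2:181669836-181671640, minus strand), a SOX factor of blood and lymph vessel endothelium, was the third PVN gene. Fed PVN libraries lay between 5.03 and 10.8 with a median of 7.44 RPKM and no fed library elsewhere exceeded 4.14, a margin over the DMH of 1.41 (SE 0.32, limma adjusted p = 0.0067). Endothelial RNA was highest in the same nucleus. All 5 endothelial genes listed (Cldn5, Pecam1, Flt1, Tek and Slco1a4) peaked in the PVN, and 4 of 5 mural genes did so. The summed endothelial RPKM was 45.5 to 64.8 in fed PVN against 13.6 to 31.5 in the fed libraries of the other nuclei. Of the genes that peaked in the PVN, 4 endothelial and 3 mural genes differed between fed nuclei. The part of vessel density in the Sox18 value was not tested.

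**Figure D2:**
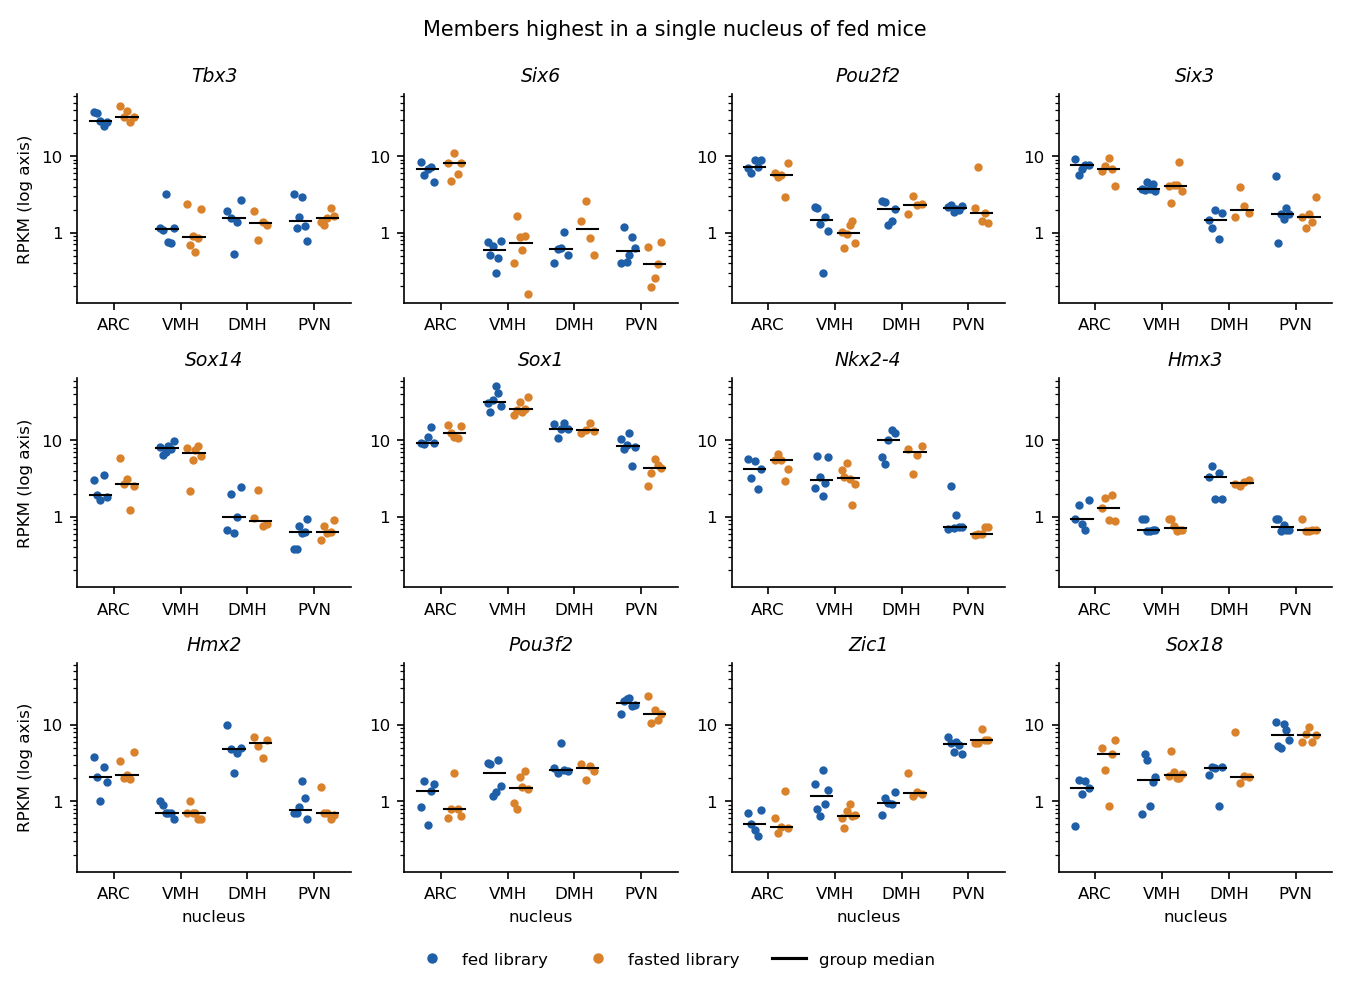
RPKM on a log axis in each library of the 4 nuclei for the 12 members enriched in 1 nucleus of fed mice. Points are fed and fasted libraries and lines are group medians, and values level at the bottom, as for Hmx3 in the VMH and PVN, are libraries without reads.

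Other members were shared by several nuclei rather than enriched in 1. The 4 Dlx members, homeodomain factors of GABAergic neurons, were high in the ARC and DMH. Dlx1 measured 8.89, 11.5, 12.8, 15.8 and 18.01 RPKM in fed ARC and 18.7, 18.9, 20.6, 22.1 and 22.4 in fed DMH, and it lay between 0.255 and 0.599 with a median of 0.444 in fed VMH and between 1.15 and 7.56 with a median of 1.43 in fed PVN. The DMH exceeded the VMH by 3.91 (SE 0.26, limma adjusted p = 5.83e-13), the largest difference of any member between fed nuclei, and the ARC did so by 3.29 (SE 0.26, limma adjusted p = 1.20e-11). The VMH, a nucleus of glutamatergic neurons, was lower than each other nucleus for Dlx1, and for no other member in fed mice. The highest PVN value, 7.56 RPKM, came from a library of 1.88 M reads, and the other 5 fed PVN libraries measured at most 1.85.

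Dlx2 lies 9.43 kb from Dlx1 on chromosome 2, and Dlx5 and Dlx6 lie 9.24 kb apart on chromosome 6. Each of these genes was called higher in the ARC than in the VMH and PVN and higher in the DMH than in the VMH. In fed ARC and DMH the means were 4.76 ± 3.19 and 4.08 ± 1.83 RPKM for Dlx2, 10.1 ± 4.64 and 7.59 ± 2.595 for Dlx5, and 4.18 ± 1.35 and 3.76 ± 0.561 for Dlx6 (SD, n = 5). In fed VMH they were 0.6605 ± 0.3198, 1.65 ± 1.03 and 1.72 ± 1.48 RPKM (SD, n = 6). In fed PVN they were 0.79 ± 0.26, 4.76 ± 5.32 and 1.19 ± 0.379 RPKM (SD, n = 6), and fed PVN library 1 reached 15.1 RPKM for Dlx5. The DMH exceeded the PVN at the threshold for Dlx2 and Dlx6 but not for Dlx5 (limma adjusted p = 0.273). The difference between ARC and DMH was not called for any Dlx gene, with estimates of 0.61 for Dlx1 in favour of the DMH and 0.07, 0.31 and 0.09 for Dlx2, Dlx5 and Dlx6 in favour of the ARC. Lhx1, a LIM homeodomain factor of the suprachiasmatic nucleus and other hypothalamic regions, had the same shape. It measured 1.39, 3.19, 3.995, 4.05 and 4.58 RPKM in fed ARC and 1.64, 1.66, 2.18, 2.197 and 4.71 in fed DMH, against 0.184 to 1.31 in the VMH. The ARC exceeded the VMH by 1.57 (SE 0.27, limma adjusted p = 9.80e-05).

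Nkx2-1, which specifies the ventral hypothalamus, was carried by the ARC, VMH and DMH and was low in the PVN. Fed ARC libraries measured 10.5, 13.7, 13.8, 15.9 and 19.4 RPKM and fed DMH libraries 8.04, 8.77, 9.09, 9.101 and 9.67, and the fed VMH lay between 11.4 and 15.97 with a median of 13.7. The fed PVN lay between 0.498 and 1.28 with a median of 0.817 RPKM, below every library of the other nuclei. The ARC exceeded the PVN by 3.11 (SE 0.16, limma adjusted p = 9.32e-17) and the DMH did so by 2.47 (SE 0.16, limma adjusted p = 8.09e-14). The ARC and VMH did not differ at the threshold, and both exceeded the DMH, by 0.63 and 0.58 on the log2 scale. Nkx2-4 was the only other member lower in the PVN than in each other nucleus of fed mice.

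Several members leaned to the PVN and DMH. Pou3f4 (Brn4), a relative of Pou3f2, lay between 4.33 and 15.5 with a median of 9.24 RPKM in fed PVN and measured 1.53, 3.88, 4.06, 6.21 and 7.17 in fed DMH, and the PVN exceeded the ARC by 1.57 (SE 0.33, limma adjusted p = 0.00216) but not the DMH at the threshold. Pou6f1, a POU factor of the brain, had means of 8.86 ± 3.18 RPKM in the PVN and 3.51 ± 1.21 in the ARC, a difference of 1.11 (SE 0.22, limma adjusted p = 0.00118). Lhx5, a LIM homeodomain factor of the embryonic forebrain, averaged 5.52 ± 3.08 RPKM in the PVN, 5.195 ± 2.94 in the DMH and 1.25 ± 0.522 in the VMH. It exceeded the VMH in the PVN by 1.45 (SE 0.33, limma adjusted p = 0.00224). In fasted mice that difference was 0.61 (SE 0.34, limma adjusted p = 0.395), and no pair of nuclei was called for Lhx5. Pou2f1 (Oct-1), a widely expressed POU factor, ranged from 3.17 ± 0.563 RPKM in the VMH to 6.19 ± 0.933 in the PVN, and the difference of 0.79 (SE 0.12, limma adjusted p = 8.11e-06) was called. In Pou2f1 18.1% of the exon bases overlap another annotated gene.

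Pbx2, Pbx3 and Pbx4 did not differ between nuclei at the threshold. Sox4, a SOX factor of newly born neurons, was called higher in the ARC than in the VMH, by 0.96 (SE 0.25, limma adjusted p = 0.0133), and the PVN also exceeded the VMH, by 0.82 (SE 0.24, limma adjusted p = 0.0265). The F test over the 4 nuclei (limma adjusted p = 0.0278) was lost without fed VMH library 5 (limma adjusted p = 0.10) and without the 3 libraries under 2 M reads (limma adjusted p = 0.11), and 54.6% of the exon bases of Sox4 overlap another annotated gene, so its reads are uncertain.

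**Figure D3:**
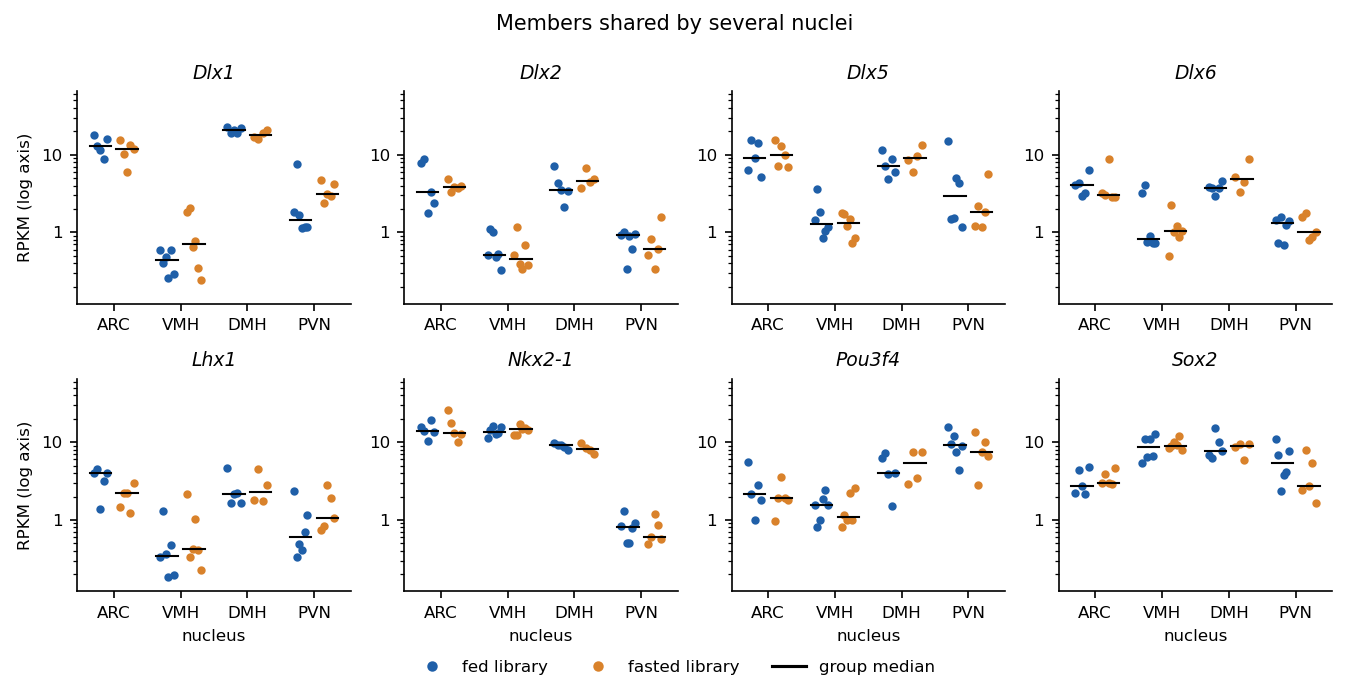
RPKM on a log axis in each library for 8 members carried by more than 1 nucleus. The 4 Dlx genes and Lhx1 are highest in the ARC and DMH, Nkx2-1 drops in the PVN and Pou3f4 is highest in the PVN. Sox2 has its lowest median in the ARC in fed mice and in the PVN in fasted mice. Lines are group medians.

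Sox2 and Nkx2-2, which are also known from glia, had their lowest fed means in the ARC, which were called lower than those of 2 of the other nuclei in each case. Sox2, a factor of stem cells and glia, measured 2.19, 2.21, 2.74, 4.38 and 4.74 RPKM in fed ARC and 6.23, 6.89, 7.62, 9.97 and 15.2 in fed DMH, and it lay between 5.34 and 12.6 with a median of 8.79 in fed VMH. The DMH exceeded the ARC by 1.24 (SE 0.30, limma adjusted p = 0.014) and the VMH did so by 1.19 (SE 0.28, limma adjusted p = 0.00492), while the PVN minus ARC difference of 0.63 (SE 0.28, limma adjusted p = 0.377) did not pass. Nkx2-2, known from ventral progenitors and early oligodendrocytes, measured 1.14, 1.86, 2.29, 3.32 and 3.85 RPKM in fed ARC and lay between 6.24 and 13.7 with a median of 9.06 in fed VMH. The VMH exceeded the ARC by 1.55 (SE 0.32, limma adjusted p = 0.000954) and the PVN did so by 1.31 (SE 0.32, limma adjusted p = 0.0102), while the DMH minus ARC difference of 0.73 (SE 0.33, limma adjusted p = 0.395) did not pass. Sox10, the lineage factor of oligodendrocytes, averaged 8.91 ± 5.88 RPKM in the DMH, 6.98 ± 2.003 in the VMH and 3.56 ± 0.652 in the ARC. Fed DMH library 3 measured 19.4 RPKM and raised the DMH mean. By fed medians the VMH was higher, at 7.95 RPKM against 6.53 in the DMH, with 4.95 in the PVN and 3.34 in the ARC. Sox10 did not differ between fed nuclei at the threshold (limma adjusted p = 0.109). Neither did Nkx6-2 or Sox8, both known from myelinating cells (limma adjusted p = 0.261 and 0.679). The summed oligodendrocyte genes followed the order VMH, DMH, PVN and ARC by their fed medians of 157, 105, 77.9 and 62.1 RPKM. The 6 astrocyte genes listed summed to fed medians of 178 RPKM in the DMH, 161 in the PVN, 138 in the VMH and 122 in the ARC. Of these genes 4 were highest in the DMH, of which 3 differed between fed nuclei. The other 2 were highest in the ARC, of which 1 differed between fed nuclei. The part of either glial type in these values was not tested. Exons of Nkx6-2, Sox8 and Nkx2-2 overlap another annotated gene over 12.9%, 10.6% and 9.67% of their bases, and the counting is not stated to use strand.

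In fed mice the genes with the flattest profile were Pbx4, Sox5, Sox6, Sox12, Sox8 and Meis3. They had the 6 smallest differences between the highest and the lowest fed nucleus. Pbx4 averaged 3.59 ± 1.25, 3.73 ± 3.12, 3.48 ± 1.13 and 3.28 ± 0.897 RPKM in the ARC, VMH, DMH and PVN. Sox5, which acts as a DNA-bending partner of other SOX factors, averaged 3.45 ± 1.39, 3.41 ± 0.794, 3.903 ± 0.4595 and 3.55 ± 1.302 RPKM in the same order. The differences were 0.10 for Pbx4, 0.18 for Sox5, 0.25 for Sox6, 0.30 for Sox12, 0.39 for Sox8 and 0.41 for Meis3 on the log2 scale. A further 8 members (Nkx6-2, Pbx2, Pbx3, Pou1f1, Pou3f3, Sox10, Sox11 and Sox13) were not called by the fed F test either. The test does not show that any of the 14 were equal between nuclei. In fasted mice some of them did differ between pairs of nuclei at the threshold. Sox12 was lower in the ARC than in the VMH and PVN, and Nkx6-2 was lower there than in the VMH and DMH. Meis3 was lower in the VMH than in the ARC and PVN, and Sox11 was higher in the ARC than in each other nucleus.

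The 12 enriched genes were called in fed mice, and the fasted mice give a second set of libraries for the same contrast, although the RPKM level that chose the 40 members was set over all 42 libraries. All 12 were highest in the same nucleus in fasted mice, and 9 again passed the test against each other nucleus. In fasted mice the rule called 0.560%, 1.27%, 0.420% and 0.646% of all genes for ARC, VMH, DMH and PVN, and 1.13%, 3.02%, 0.331% and 1.49% of the protein-coding genes at the level of the members. Tbx3 kept the largest margin over its next nucleus, 3.80 (SE 0.25, limma adjusted p = 1.06e-13), with fasted ARC libraries of 27.5, 32.1, 32.9, 39.1 and 44.7 RPKM. Pou3f2 had a fasted margin of 2.12 (SE 0.26, limma adjusted p = 8.15e-07), Six6 of 1.90 (SE 0.21, limma adjusted p = 1.98e-07), and Zic1 of 1.60 (SE 0.17, limma adjusted p = 7.30e-08). Hmx3 and Hmx2 had margins of 0.70 (SE 0.15, limma adjusted p = 0.00701) and 0.80 (SE 0.23, limma adjusted p = 0.0667), with fasted DMH libraries of 2.52, 2.67, 2.89 and 3.07 RPKM for Hmx3 and 3.696, 5.297, 6.32 and 6.88 for Hmx2. Pou2f2, Sox14 and Sox1 passed with 0.94, 0.84 and 0.89 (limma adjusted p = 0.0432, 0.0228 and 0.00669). Unlike in fed mice, Pou2f2 and Sox14 overlapped other nuclei. For Pou2f2 fasted PVN library 2 reached 7.198 RPKM, and 1 of 5 fasted ARC libraries lay above it. For Sox14 fasted ARC library 1 reached 5.96 RPKM, and 4 of 6 fasted VMH libraries lay above it. Sox1 again did not overlap. Those that missed the test were Nkx2-4 at 0.32 (SE 0.30, limma adjusted p = 0.919), Six3 at 0.55 (SE 0.23, limma adjusted p = 0.193) and Sox18 at 0.91 (SE 0.33, limma adjusted p = 0.173). For Sox18 the fasted ARC libraries measured 0.881, 2.56, 4.15, 5.02 and 6.34 RPKM and 1 fasted DMH library reached 7.93, above 4 of the 5 fasted PVN libraries. Fasted Sox11, a SOX factor of immature neurons, was called in the ARC (8.19 ± 4.18 RPKM), where its fed margin had not passed, and fasted Zic2 in the PVN (2.82 ± 1.198 RPKM).

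**Figure D4:**
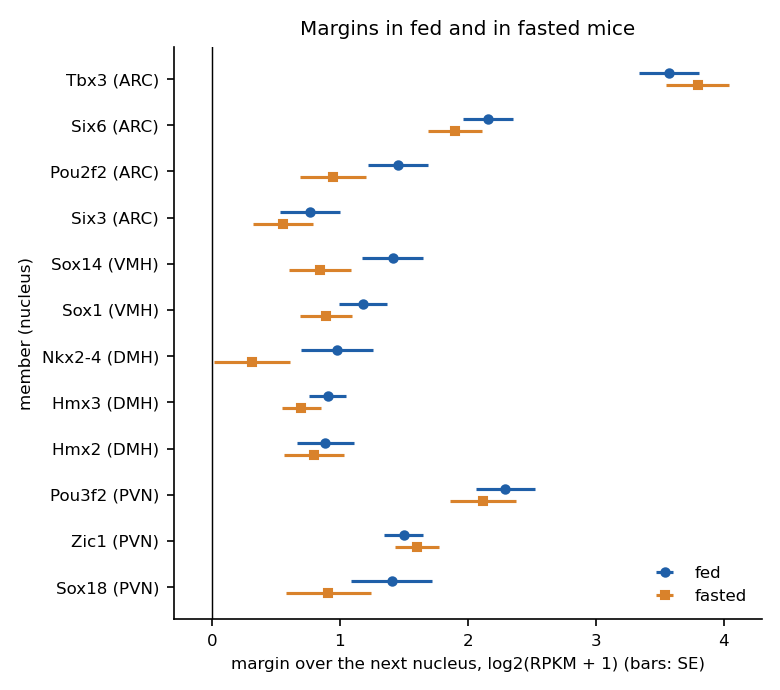
Margin of each of the 12 enriched members over the next highest nucleus, in log2(RPKM + 1), in fed (circles, which chose the genes) and fasted (squares) mice with SE bars. All 12 fasted margins lie above 0, and Tbx3 has the largest in both states.

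A 24-hour fast changed 1 of the 40 members in 1 nucleus at the threshold. In the ARC, VMH and DMH limma called 0 of 40 members, and in the PVN it called 1. At an unadjusted p below 0.05 there were 4, 2, 1 and 3 members in the ARC, VMH, DMH and PVN, or 10%, 5%, 2.5% and 7.5%, beside 7.50%, 7.31%, 6.48% and 5.53% of all genes and 8.30%, 10.5%, 4.23% and 8.23% of the protein-coding genes at the same level. The adjusted threshold called 0.0566%, 0.131%, 0.0238% and 0.0715% of all genes. The median size of the change over the members was 0.21, 0.16, 0.18 and 0.21 on the log2 scale, and Sox12 in the ARC was the only change above 1 in size. The interaction test of limma, which asks whether the change differs between nuclei, called 0 members, and in it 3 members (Pbx2, Sox1 and Zic1) had an unadjusted p below 0.05, or 7.5%, beside 4.39% of all genes and 6.22% of the protein-coding genes at the level, and the adjusted threshold called 0.00596% of all genes.

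Sox1 was the member called in the PVN. Its fed libraries lay between 4.58 and 12.4 with a median of 8.48 RPKM and its fasted libraries measured 2.53, 3.74, 4.37, 4.74 and 5.67, so the groups overlapped while every fasted library lay below the fed mean. The change was −0.87 on the log2 scale (SE 0.19, unadjusted p = 6.10e-05 and adjusted p = 0.0922 in limma). The call did not hold when only the PVN libraries entered the fit (limma adjusted p = 0.793), nor without the 3 libraries under 2 M reads (−0.89, limma adjusted p = 0.129), nor without PVN-Fast library 1 or 2 or PVN-Fed library 1, 2, 3, 4 or 6 (−0.89 to −0.74, limma adjusted p = 0.117 to 0.321). Within the 3 inferred batches, sets of libraries that share recurring values, the change was −1.49, −1.02 and −0.37. For ARC, VMH and DMH the change of Sox1 was 0.28, −0.30 and −0.02, and its interaction test had an unadjusted p of 0.00158 and an adjusted p of 0.745 in limma.

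The other changes named here had the lowest p-values of their nucleus and did not pass. In the ARC, Sox12, a SOX factor related to Sox4 and Sox11, measured 4.07, 5.36, 5.48, 6.68 and 7.15 RPKM in fed and 1.595, 1.89, 2.06, 2.302 and 3.12 in fasted libraries, without overlap. Its change was −1.08 on the log2 scale (SE 0.31, unadjusted p = 0.00134 and adjusted p = 0.296 in limma). Pbx2 moved the other way without overlap, from 7.12, 7.77, 8.09, 9.59 and 10.3 to 10.6, 12.7, 13.3, 14.1 and 15.5 RPKM, a change of 0.57 on the log2 scale (SE 0.20, unadjusted p = 0.00715 and adjusted p = 0.543 in limma). The ARC groups were separate for these 2 of 40 members, beside 0.742% of all genes, and for 0 members in the other nuclei, beside 0.277%, 1.15% and 0.402% of all genes in the VMH, DMH and PVN. Nkx6-2 had lower fasted means in all 4 nuclei, 8.84 ± 2.0 against 5.197 ± 2.59 RPKM in the ARC and 12.8 ± 3.404 against 8.44 ± 2.93 in the PVN, with adjusted p of 0.402 and 0.755 in limma. Sox18 in the ARC, named after its values were seen, went from 0.476, 1.25, 1.48, 1.84 and 1.91 to 0.881, 2.56, 4.15, 5.02 and 6.34 RPKM (unadjusted p = 0.0106, adjusted p = 0.603 in limma), while the summed endothelial genes of the ARC were 13.6 to 20.5 RPKM in fed and 13.1 to 22.8 in fasted libraries.

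In the VMH the lowest p-values belonged to Zic1, Sox11 and Pou3f3, a POU factor of the forebrain. Zic1 lay between 0.634 and 2.57 with a median of 1.16 RPKM in fed and between 0.442 and 0.911 with a median of 0.649 in fasted libraries, a change of −0.44 on the log2 scale (SE 0.15, unadjusted p = 0.00613 and adjusted p = 0.4 in limma). Sox11 averaged 4.31 ± 1.42 RPKM in fed and 2.47 ± 1.602 in fasted mice and Pou3f3 4.28 ± 1.73 and 2.74 ± 0.918, with limma adjusted p of 0.617 for each. In the DMH, Six6, Zic1 and Six3 had fasted means above the fed means, at 1.34 ± 0.902, 1.52 ± 0.544 and 2.39 ± 1.05 against 0.629 ± 0.231, 0.989 ± 0.239 and 1.45 ± 0.477 RPKM, with limma adjusted p of 0.762, 0.852 and 0.919. These are low values, and the estimated depth of the DMH libraries was 3.91 ± 0.862 M reads in fed and 7.38 ± 4.004 M in fasted mice (SD). The changes were 0.46, 0.33 and 0.44 on the log2 scale, and 0.56, 0.34 and 0.40 with estimated depth as a covariate (limma adjusted p = 0.708, 0.8999 and 1). Dlx1 in the PVN averaged 2.43 ± 2.53 RPKM in fed and 3.49 ± 0.951 in fasted mice (limma adjusted p = 0.869).

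**Figure D5:**
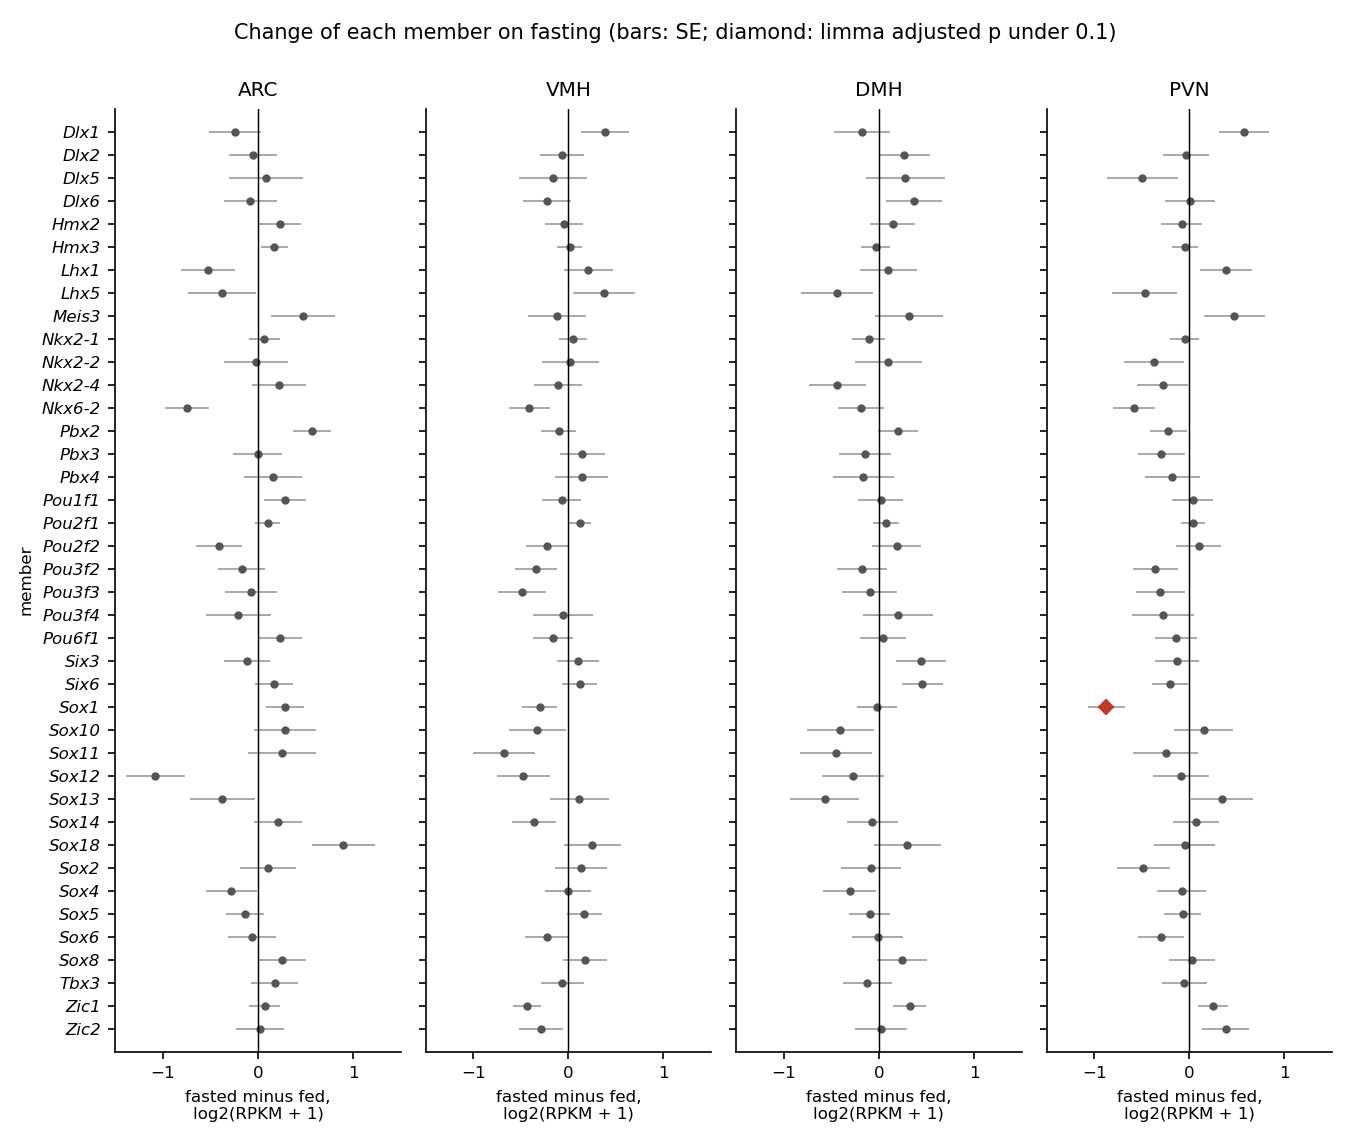
Fasted minus fed difference of log2(RPKM + 1) for each of the 40 members in the 4 nuclei, with SE bars. The diamond is Sox1 in the PVN, the only change with a limma adjusted p below 0.1, and Sox12 in the ARC is the only point beyond 1 in size.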

How the data were processed

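RNA of laser-captured nuclei was amplified with the Ovation RNA-Seq System V2 and sequenced as single-end reads by the study. The authors deposited 1 table of RPKM values for 42 libraries. The submitters' processing notes name CASAVA 1.7, TopHat2 2.0.11, Cufflinks 2.2.1, edgeR, limma and the build GRCm38, and the counting is not stated to use strand. Gene names came from GENCODE M21 (36049 of 37907 IDs matched). The study removed outlying samples by multidimensional scaling before deposit.

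The table holds 0 zeros. Genes with no reads share recurring values, which fall into 3 sets of 10, 16 and 16 libraries. The study's methods state 3 batches of capture, and the assignment is inferred here. Batch means of the log2 values are equal (median largest difference 4.5e-08), so the batches were adjusted before deposit. The groups were spread unevenly over the batches. The set of 10 libraries held 2 fed and 2 fasted VMH libraries but 1 fed and 0 fasted DMH libraries. Equal batch means can therefore shift differences between nuclei, and a fit with a batch term is among the settings below. The added count was 5 reads in a mean library, so folds of low genes are understated. Depth was estimated by matching the no-read values to exon length, which held within 1% for 75.5% of 20451 genes, and low values then came out as whole reads in 97.9% to 99.1% of cases (tolerance 0.05 reads). The depths are estimates.

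Libraries were grouped by GEO's labels. limma 3.58.1 in R 4.3.3 was fitted to log2(RPKM + 1) over the 8 groups, with an intensity trend, on 33579 genes with at least 1 RPKM in 4 libraries, with Benjamini-Hochberg adjustment over all genes and a threshold of 0.1. Batch adjustment before deposit and shared mice are not in the model. RPKM are not counts, so no count model was used. p-values measure the spread between these libraries. The fit was tested on simulated data. Named genes were the 24 members with the largest fed differences among those called, up to 4 enriched per nucleus, the fasting calls and the 3 lowest p per nucleus, the 6 flattest members, the glial and vascular members, neighbours within 100 kb and those at the edge of the level rule. Members and lists were chosen with earlier results of these data known. Of the families 3 further genes are not reported here. No protein sequences were used here. The highest correlation between any 2 of the 42 libraries was 0.981, and no 2 libraries were identical. The count of unused sample columns was 0.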

Additional observations from a re-analysis of the deposited data

Results flagged for a closer look

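Of 48 groups of 4 to 6 libraries examined, 5 held a library far from the others by Dixon's test, where chance gives about 1 in 20 groups, or 2.4. The 48 are only a part of the groups of the members, so the 5 are not a full list. Dlx1 in fed PVN library 2 was 7.56 RPKM, with the others between 1.15 and 1.85; this library had an estimated 1.88 M reads. Lhx5 in fed PVN library 5 was 11.4 RPKM, with the others between 2.34 and 5.49. Sox11 in fasted VMH library 6 was 5.53 RPKM, with the others between 1.04 and 2.36. Pou3f3 in fasted VMH library 2, the lowest of its group, was 0.941 RPKM, with the others between 2.64 and 3.37. Zic1 in fasted DMH library 1 was 2.33 RPKM, with the others between 1.18 and 1.31. Groups outside this list also held a library far above the rest. Sox18 reached 7.93 RPKM in fasted DMH (others 1.71 to 2.14) and Sox10 reached 19.4 in fed DMH (5.56 to 7.07). In fasted PVN, Pou2f2 reached 7.20 RPKM (others 1.32 to 2.10) and Meis3 reached 30.9 (8.14 to 12.4). Dlx5 reached 15.1 RPKM in fed PVN (others 1.17 to 5.03). The cause was not tested.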

How the results depend on the processing

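Each value was recomputed with pseudocounts of 0.1 and 0, other filters, array weights, no intensity trend, only the groups compared, terms for batch, depth or a replicate block, and without each library. Fitting without the 3 libraries under 2 M reads and centring libraries on their medians were chosen after seeing the data. The members differing between nuclei numbered 24 to 27 in fed and 26 to 28 in fasted mice, and 0 members were called on fasting in the ARC, VMH and DMH under every setting. The PVN count fell from 1 to 0 with only the PVN libraries and without the 3 shallow libraries, and was 0 to 1 when single libraries were left out. The count of DMH members fell from 3 to 1 with only the fed libraries. The largest shift of a library median under centring was 0.099 (log2).

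Values that changed sign belonged to results that were not called. Pbx4 in the ARC over the VMH was −0.03 without fed ARC library 4 and −0.044 without fed VMH library 4, the lowest value, and 0.379 without fed VMH library 1, the highest. Six6 in the DMH changed by −0.055 within the third batch. The cause was not tested. Same-numbered fed and fasted libraries of a nucleus did not deviate together (20 pairs, correlations −0.12 to 0.052). They come from different mice, so this could not show shared mice. Same-numbered libraries of 2 nuclei in the same state did not deviate together either (58 pairs, correlations −0.13 to 0.067). Some of these pairs lie in different inferred batches, as do libraries 2 of fed ARC and fed VMH. The replicate number thus need not mark a mouse, so this could not show shared mice either. Which libraries share a mouse remains unknown. With the replicate block 27 members differed in fed and 26 in fasted mice. It left 4, 2, 2 and 3 members enriched in the ARC, VMH, DMH and PVN, and 0, 0, 0 and 1 changed on fasting. The block joins libraries of different inferred batches, and of fed and fasted mice, under the same number. It therefore does not adjust for shared mice. Depth limits the low members, and 10 of the 40 stood at the no-read value in at least 1 library.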

Other observations

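Other developmental regulators outside these families were compared through a list of 47 genes, of which 41 were tested. In fed mice 27 of the 41 differed between nuclei, beside 12.4% of all genes, and in fasted mice 27 did, beside 11.9%. The shares of the protein-coding genes at the level of the members were 27.6% and 26.1%. In fed mice the enriched ones were 6 PVN, 4 VMH, 2 DMH and 1 ARC genes. The same rule called 0.706%, 1.64%, 0.298% and 0.447% of all genes for these nuclei in turn. It called 1.65%, 4.02%, 0.315% and 0.911% of the protein-coding genes at that level. The VMH genes were Fezf1 and Nr5a1, which define VMH neurons, together with Nr2f2 and Tshz2. Fezf1 averaged 94.99 ± 29.8 for VMH against 4.24 ± 2.51 RPKM for PVN and Nr5a1 21.8 ± 10.003 for VMH against 0.577 ± 0.279 RPKM for DMH (SD). The PVN genes were Sim1 and Otp, which specify PVN neurons, Arnt2, the partner of Sim1, and Ebf3, Fezf2 and Foxp2. Sim1 averaged 19.1 ± 3.29 for PVN against 1.58 ± 0.514 RPKM for DMH and Ebf3 48.8 ± 6.19 for PVN against 15.2 ± 2.83 RPKM for DMH. Otp varied widely, at 32.7 ± 38.4 for PVN against 5.67 ± 3.43 RPKM for ARC. The DMH genes were Lef1 and Prox1, at 5.46 ± 1.44 for DMH against 2.05 ± 0.826 RPKM for PVN and 26.8 ± 7.56 for DMH against 14.6 ± 2.99 RPKM for ARC. Isl1, a LIM homeodomain factor of arcuate neurons, averaged 17.1 ± 3.13 for ARC against 7.66 ± 1.33 RPKM for DMH. Of the 13 genes, 11 were again enriched in the same nucleus in fasted mice, and Otp and Prox1 were not. Fasting changed 0 of the 41 in each nucleus by limma. At an unadjusted p below 0.05 there were 1, 8, 1 and 3 in the ARC, VMH, DMH and PVN, or 2.44%, 19.5%, 2.44% and 7.32%. The shares of all genes were 7.50%, 7.31%, 6.48% and 5.53%. Those of the protein-coding genes at the level of the members were 8.30%, 10.5%, 4.23% and 8.23%.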
